A study of Mus musculus with 12 samples.

Results

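The Frizzled receptors are the 10 genes Fzd1 to Fzd10 of the mouse, taken by name from an array series on muscle satellite cells, the stem cells of skeletal muscle. All 10 had a probe set annotated to exactly 1 gene symbol, and none had more than 1 such probe set, so they make up 10 of the 19938 genes measured. Cells came from limbs of heterozygous Pax7-ZsGreen mice on C57BL/6, in which a green fluorescent reporter marks cells that use the Pax7 locus. The fetal cells were from whole forelimb and hindlimb at E17.5, late in gestation (pool of 4 mice). The adolescent cells were from hindlimb at postnatal day 21 (6 mice), the adult cells from hindlimb at 2 to 3 months (8 mice), and the aged cells from hindlimb of mice over 1 year old (8 mice). Each stage had 3 arrays. The labels do not say whether each pool size is per array or per stage, or whether the 3 arrays hold separate pools. If they do not, the p-values measure technical spread only. Stage and limb cannot be told apart in comparisons with the fetal cells. All mice carried the reporter, and the negative control for its sorting gate was wild-type SV129 muscle.

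Frizzled proteins span the cell membrane several times and bind secreted Wnt proteins through a cysteine-rich domain outside the cell. With the co-receptors Lrp5 and Lrp6 they stabilise beta-catenin, which then acts with TCF/LEF factors on target genes, and with Ror, Ryk, Vangl and Celsr proteins they steer planar cell polarity and calcium signalling. In muscle, Fzd7 is known as a receptor through which Wnt7a expands the satellite cell pool by the planar polarity route. By sequence the family falls into the groups Fzd1, Fzd2 and Fzd7; Fzd5 and Fzd8; Fzd3 and Fzd6; and Fzd4, Fzd9 and Fzd10.

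The RefSeq promoter table for build GRCm38.p6 held 6 of the 10 genes: Fzd1, Fzd4, Fzd5, Fzd7, Fzd9 and Fzd10. The 250 bases before the annotated start are shown for Fzd7 (chr1:59481897-59482146, plus strand) and Fzd4 (chr7:89404116-89404365, plus strand), since the signals of these receptors ran together over the arrays. The same stretch is shown for Fzd1 (chr5:4758217-4758466, minus strand), whose signal was highest at another stage. Capitals mark the motifs searched on either strand: the GC box GGGCGG, the TCF/LEF core CTTTGA, the E-box CAGCTG and the TATA box TATAAA.
Fzd7: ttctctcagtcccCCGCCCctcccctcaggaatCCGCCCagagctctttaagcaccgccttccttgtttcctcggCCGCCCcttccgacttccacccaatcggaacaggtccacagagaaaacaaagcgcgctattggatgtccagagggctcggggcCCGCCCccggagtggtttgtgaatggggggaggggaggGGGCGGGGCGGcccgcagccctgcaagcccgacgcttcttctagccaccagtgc
Fzd4: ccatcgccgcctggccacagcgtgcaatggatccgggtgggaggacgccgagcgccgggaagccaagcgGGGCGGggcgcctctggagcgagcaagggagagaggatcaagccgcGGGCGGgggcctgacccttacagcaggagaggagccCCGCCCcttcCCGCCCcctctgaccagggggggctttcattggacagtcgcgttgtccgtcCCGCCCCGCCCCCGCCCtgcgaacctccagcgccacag
Fzd1: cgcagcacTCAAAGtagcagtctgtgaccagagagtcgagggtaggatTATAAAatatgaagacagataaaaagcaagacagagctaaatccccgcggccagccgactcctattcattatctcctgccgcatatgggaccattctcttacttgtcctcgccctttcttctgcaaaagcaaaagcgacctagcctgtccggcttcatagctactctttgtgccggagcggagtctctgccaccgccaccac
The Fzd7 stretch held 17 CpG pairs, a GC content of 65.2% and 6 GC boxes. The Fzd4 stretch held 25 CpG pairs, a GC content of 72.8% and 7 GC boxes, and in both genes neighbouring boxes overlap. The Fzd1 stretch held 12 CpG pairs at a GC content of 51.2%, with no GC box, 1 TCF/LEF core at bases -242 to -237 and 1 TATAAA at bases -202 to -197, counted from the start. Of all 32851 promoter windows of this length, 32.7% held a GC box, 13.8% the core CTTTGA, 3.21% the longer core CTTTGAT, 13% CAGCTG and 12.4% TATAAA, and the median window had 6 CpG pairs and a GC content of 52.4%. Among the 6 Frizzled windows, 5 held a GC box, 1 the core CTTTGA, 0 the longer core, 1 CAGCTG (Fzd10) and 1 TATAAA. These matches describe letters in the window and say nothing of binding.

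Values are log2 signals summarised by RMA, so a difference of 1 is a 2-fold change of signal. Stage differences compare a probe set only with itself across arrays. Levels are set against other probe sets only through the receptor line defined below. Pax7 lay between 10.36 and 10.51 on the fetal arrays, 10.84 and 11.03 on the adolescent, 11.45 and 11.69 on the adult and 11.51 and 11.71 on the aged arrays. Of 16 satellite cell markers, 12 rose and 1 fell from fetal to adolescent cells (median difference 0.70), 4 rose and 1 fell to adult cells, and 1 rose and 0 fell to aged cells. None of the 16 had a stage mean at or below the receptor line, which is the 95th percentile of 1212 odorant and pheromone receptor probe sets taken as background and lay at 5.33 to 6.13 on single arrays. Members are set against the line of their own array, and gene lists against its mean of 5.57 over the arrays. Mean signal of those receptor probe sets was 4.46 and 4.50 on adult replicates 2 and 3 and 4.30 on aged replicate 1, against 3.79 to 3.91 on the other 9 arrays. Replicates 2 and 3 of a stage correlated at 0.996 to 0.999 over all genes, and pairs with replicate 1 at 0.972 to 0.993. Adult replicate 1 stood apart: Mki67, a gene of dividing cells, was at 9.28 there and at 6.58 and 6.44 on the other adult arrays, and 38.9% of all genes differed from the mean of those arrays by at least 0.4. For the Frizzled genes, differences that rest on it are given with and without it. The marker and Wnt pathway lists are given only with it. Without it, genes that passed went from 3941 to 10757 in adult against adolescent and from 697 to 7844 in aged against adult. A count of 0 for a list at these steps was not tested without it.

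The Frizzled genes that changed were mostly highest in fetal cells. From fetal to adolescent cells, 5 of 10 fell (Fzd2, Fzd3, Fzd4, Fzd7 and Fzd8) at an adjusted p under 0.05 with limma over all genes, beside 8.68% of all genes. By the same test 0 rose, beside 10.1% of all genes. At an unadjusted p under 0.05, limma had 1 higher (Fzd10) and 5 lower. From adolescent to adult cells 3 of 10 fell (Fzd1, Fzd2 and Fzd3), beside 15.2% of all genes, and 0 rose, beside 4.56%. Unadjusted, 0 were higher and 4 lower at this step. From adult to aged cells 1 of 10 rose (Fzd3), beside 3.28% of all genes, and 0 fell, beside 0.216%. Unadjusted, 3 were higher and 0 lower at this step. The shares of all genes given here are for the adjusted p, and shares at the unadjusted threshold were not counted. Over all 4 stages, limma's F-test called 6 of 10, beside 41.6% of all genes, and Fzd5, Fzd6, Fzd9 and Fzd10 were not among them. With the closely alike replicates 2 and 3 of each stage averaged into 1 sample, the counts were 4 from fetal to adolescent, 0 from adolescent to adult, 0 from adult to aged and 4 in the F-test. In that setting 1472, 323, 2 and 3430 of all genes passed. In sorted bulk cells, fewer cells of a type and less RNA per cell cannot be told apart.

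**Figure D1:**
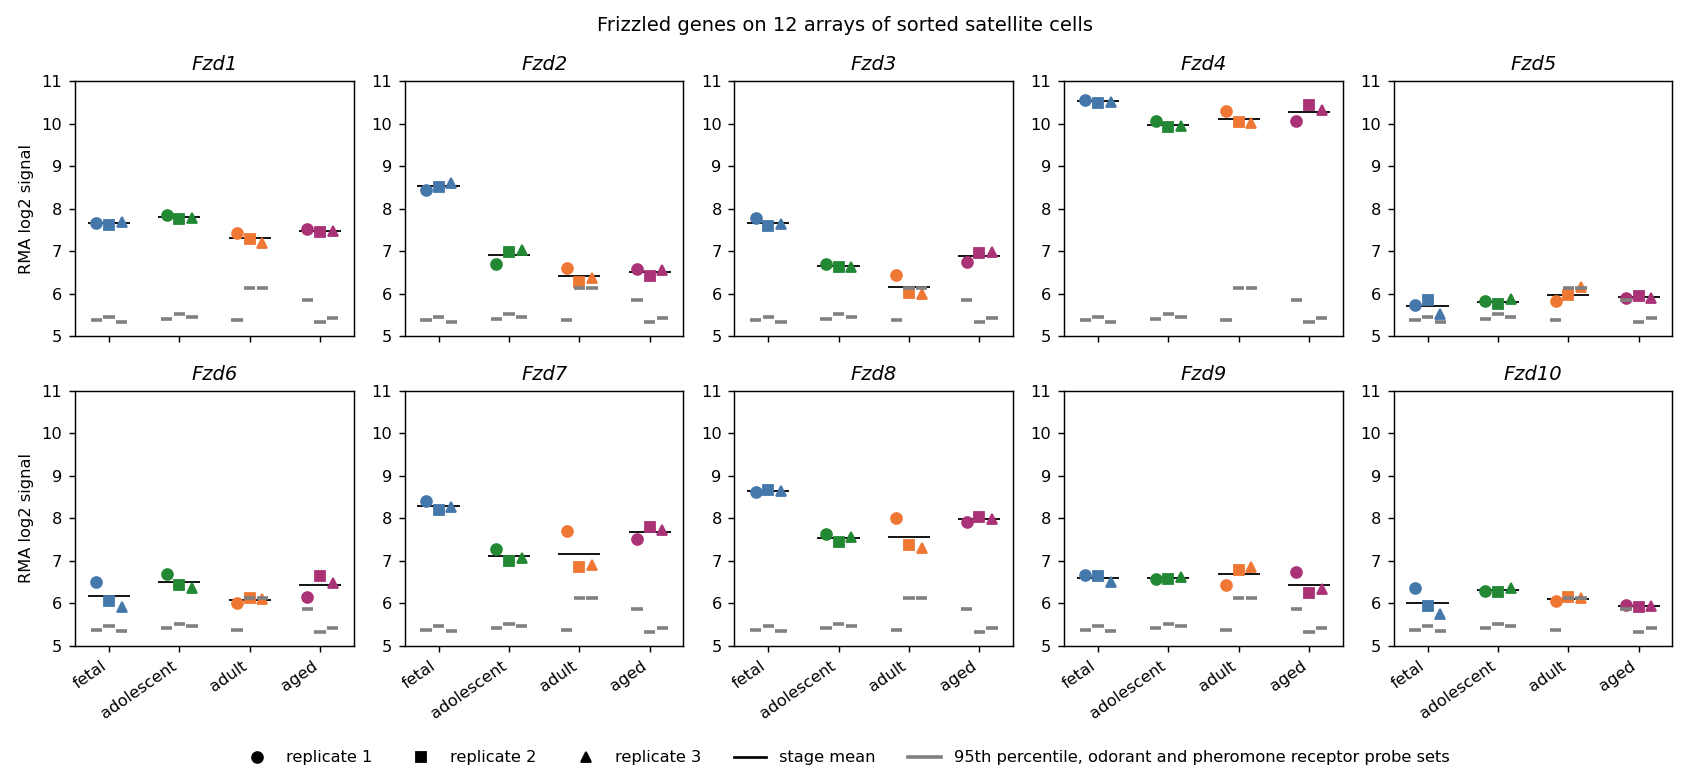
Each panel plots the RMA log2 signal of 1 Frizzled gene on the 12 arrays by stage, with circles, squares and triangles for replicates 1, 2 and 3, a black line for the stage mean and grey marks for each array's receptor line. Fzd2, Fzd3, Fzd7 and Fzd8 sit highest in the fetal cells, and the adult values of Fzd7 and Fzd8 spread most, with replicate 1 on top.

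Fzd2, which acts with Fzd1 and Fzd7 in closing the palate of mouse embryos, had the largest fetal excess of the family. Its signal was 8.44, 8.52 and 8.61 on the fetal arrays, 6.69, 6.99 and 7.03 on the adolescent, 6.60, 6.28 and 6.38 on the adult and 6.58, 6.42 and 6.55 on the aged arrays. The fetal values lay above all others, the adolescent values above all adult and aged ones, and adult and aged values overlapped. On adult replicates 2 and 3 the receptor line was 6.13, close below the Fzd2 values of 6.28 and 6.38. Fzd2 fell by 1.62 ± 0.12 (SE) from fetal to adolescent cells (3.07-fold, limma adjusted p = 8.04e-07). It fell by a further 0.48 ± 0.12 to the adult cells (adjusted p = 0.0141). The adult level was 4.29-fold below the fetal one (-2.10 ± 0.12, adjusted p = 4.52e-08), and aged against adult gave 0.10 ± 0.12 (adjusted p = 0.604). The adolescent to adult step lost its call without adult replicate 2 (-0.41, adjusted p = 0.0739), adult replicate 3 (-0.46, 0.0565), adolescent replicate 2 (-0.44, 0.061) or adolescent replicate 3 (-0.42, 0.0701). Without the 3 arrays of high receptor signal, which leaves replicate 1 as the only adult array, it was -0.30 ± 0.14 (adjusted p = 0.237). The call was also missed with each array centred on its median over genes (-0.38, adjusted p = 0.0518) and with only adolescent and adult arrays in the fit (adjusted p = 0.0654).

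Fzd7, the Wnt7a receptor of satellite cells, fell after birth and had a wide adult spread. It stood at 8.41, 8.19 and 8.27 on the fetal arrays, 7.28, 6.99 and 7.07 on the adolescent, 7.69, 6.85 and 6.91 on the adult and 7.51, 7.80 and 7.72 on the aged arrays. The fetal values lay above all later ones, the aged above the adolescent, and adult replicate 1 lay within the aged range while the other adult arrays lay below every adolescent value. Fzd7 fell by 1.18 ± 0.19 from fetal to adolescent cells (2.26-fold, adjusted p = 0.000601). Adult against adolescent gave 0.04 ± 0.19 (adjusted p = 0.896), and without adult replicate 1 it gave -0.23 ± 0.12 (adjusted p = 0.108). Aged against adult gave 0.53 ± 0.19 (adjusted p = 0.156), and without adult replicate 1 Fzd7 passed at 0.80 ± 0.12 (adjusted p = 0.00135). The difference was 0.07 ± 0.14 (adjusted p = 0.828) when the 3 arrays of high receptor signal were left out instead, a setting in which adult replicate 1 is the only adult array and is assumed to vary like the other groups. The adult level of Fzd7 depended on which adult arrays were used.

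Fzd1, the third gene of that group, had its highest mean in adolescent cells. Its signal was 7.66, 7.62 and 7.69 on the fetal arrays, 7.84, 7.76 and 7.78 on the adolescent, 7.42, 7.28 and 7.20 on the adult and 7.53, 7.44 and 7.47 on the aged arrays. No 2 stages overlapped: adolescent cells were highest, then fetal, then aged, then adult. The step from fetal to adolescent cells did not pass (0.14 ± 0.09, adjusted p = 0.391). Fzd1 fell by 0.50 ± 0.09 from adolescent to adult cells (1.41-fold, adjusted p = 0.00243) and lay 0.36 ± 0.09 below the fetal level in adult cells (adjusted p = 0.0064). With quantile normalization repeated over the arrays these became -0.25 ± 0.08 (adjusted p = 0.0515) and -0.11 ± 0.08 (adjusted p = 0.282).

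Fzd8, a receptor whose cysteine-rich domain binds many Wnts, ran closely with Fzd7. It stood at 8.61, 8.67 and 8.64 on the fetal arrays, 7.64, 7.43 and 7.55 on the adolescent, 8.01, 7.36 and 7.30 on the adult and 7.91, 8.04 and 7.97 on the aged arrays. As with Fzd7, adult replicate 1 lay within the aged range and the other adult arrays below every adolescent value. Fzd8 fell by 1.10 ± 0.16 from fetal to adolescent cells (2.14-fold, adjusted p = 0.000224). Adult against adolescent gave 0.02 ± 0.16 (adjusted p = 0.938) and aged against adult 0.41 ± 0.16 (adjusted p = 0.17). Without adult replicate 1 they gave -0.21 ± 0.09 (adjusted p = 0.0742) and 0.64 ± 0.09, and the latter passed (adjusted p = 0.00122). Without the arrays of high receptor signal, adult cells were above adolescent cells by 0.47 ± 0.11 for Fzd8 (adjusted p = 0.0275) and 0.58 ± 0.13 for Fzd7 (adjusted p = 0.0269), again with 1 adult array. Its relative Fzd5, needed for the vessels of the yolk sac and placenta, ranged only from 5.52 to 6.15 over the 12 arrays. It was not above the receptor line on adult replicate 2 and passed no comparison (F-test adjusted p = 0.192).

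Fzd3, which guides axons in the developing brain and spinal cord, was the member that passed between adult and aged cells. Its signal was 7.78, 7.60 and 7.63 on the fetal arrays, 6.70, 6.63 and 6.63 on the adolescent, 6.43, 6.02 and 6.00 on the adult and 6.74, 6.95 and 6.97 on the aged arrays. No stages overlapped, with fetal cells highest, then aged, adolescent and adult. On adult replicates 2 and 3 the value was below the receptor line of the array. Fzd3 fell by 1.02 ± 0.12 from fetal to adolescent cells (2.02-fold, adjusted p = 6.27e-05) and by 0.50 ± 0.12 to adult cells (adjusted p = 0.0137). It then rose by 0.74 ± 0.12 to aged cells (1.67-fold, adjusted p = 0.00641), where it remained 0.78 ± 0.12 below the fetal level (adjusted p = 0.000227). The rise kept its call with each adult or aged array left out in turn, and missed it when only adult and aged arrays entered the fit (adjusted p = 0.098) or with replicates 2 and 3 averaged (0.63, adjusted p = 0.502). The fall to adult cells lost its call without adult replicate 2 (-0.44, adjusted p = 0.0708), adult replicate 3 (-0.43, 0.0695) or adolescent replicate 1 (-0.48, 0.0504). It was -0.23 ± 0.10 (adjusted p = 0.231) without the arrays of high receptor signal, which include the adult arrays on which Fzd3 is below the line. It also missed the call with only adolescent and adult arrays in the fit (adjusted p = 0.0575).

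Fzd6, known for patterning hair and, with Fzd3, for closing the neural tube, passed no comparison (F-test adjusted p = 0.138). Its stage means were 6.16 ± 0.31 (SD, n = 3) in fetal, 6.49 ± 0.18 in adolescent, 6.08 ± 0.06 in adult and 6.42 ± 0.26 in aged cells, and it was not above the receptor line on adult replicates 2 and 3. Replicate 1 was the highest fetal and adolescent array, at 6.51 and 6.69. Without fetal replicate 1, Fzd6 passed from fetal to adolescent cells (0.51 ± 0.15, adjusted p = 0.0455).

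Fzd4, the receptor for Norrin in vessels of the retina and also a Wnt receptor, changed by a smaller amount. It stood at 10.56, 10.49 and 10.51 on the fetal arrays, 10.06, 9.92 and 9.95 on the adolescent, 10.30, 10.03 and 10.01 on the adult and 10.07, 10.44 and 10.33 on the aged arrays. The fetal values lay above all later ones, and the adult values overlapped both neighbours. Fzd4 fell by 0.54 ± 0.12 from fetal to adolescent cells (1.45-fold, adjusted p = 0.00476), which was lost with replicates 2 and 3 averaged (-0.53, adjusted p = 0.123). Adult cells lay 0.40 ± 0.12 below fetal cells (adjusted p = 0.0144), and this was lost without adult replicate 2 (-0.36, adjusted p = 0.0596) or 3 (-0.35, adjusted p = 0.0624). It was -0.22 ± 0.10 (adjusted p = 0.151) without the arrays of high receptor signal and -0.25 ± 0.09 with quantile normalization repeated (adjusted p = 0.0409). Adult against adolescent gave 0.14 ± 0.12 (adjusted p = 0.379), and with quantile normalization repeated Fzd4 passed there as higher in adult cells (0.31 ± 0.09, adjusted p = 0.0305). Aged against adolescent gave 0.30 ± 0.12 (adjusted p = 0.0911), and 0.41 ± 0.11 without aged replicate 1, the lowest aged array (adjusted p = 0.022).

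Fzd9, a gene of the region deleted in Williams syndrome, had stage means of 6.60 ± 0.10, 6.59 ± 0.02, 6.69 ± 0.23 and 6.43 ± 0.26 (SD, n = 3) from fetal to aged cells and passed no comparison (F-test adjusted p = 0.446). Without adult replicate 1, aged cells lay below adult cells (-0.39 ± 0.13, adjusted p = 0.035). The adult arrays that set this value, at 6.79 and 6.86, are those of high receptor signal. Fzd10, a receptor best known from synovial sarcoma, had stage means of 6.01 ± 0.31, 6.32 ± 0.05, 6.11 ± 0.05 and 5.93 ± 0.02 and likewise passed none (F-test adjusted p = 0.112). Its fetal values of 6.35, 5.93 and 5.74 were the widest, and without fetal replicate 1 it passed from fetal to adolescent cells at 0.48 ± 0.10 (adjusted p = 0.00572). Fzd10 was not above the receptor line on adult replicate 3. The opposite-strand transcript Fzd10os has a probe set of its own, which read 5.24 to 6.09.

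The median difference over the 10 Frizzled genes was -0.28 from fetal to adolescent cells, beside 0.02 over all genes. It was -0.09 from adolescent to adult cells, beside 0.03, and 0.17 from adult to aged cells, beside -0.01. Without adult replicate 1 the count from adult to aged cells was 5 of 10, with 4 higher (Fzd1, Fzd3, Fzd7 and Fzd8) and 1 lower (Fzd9), while the number of all genes that passed went from 697 to 7844.

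**Figure D2:**
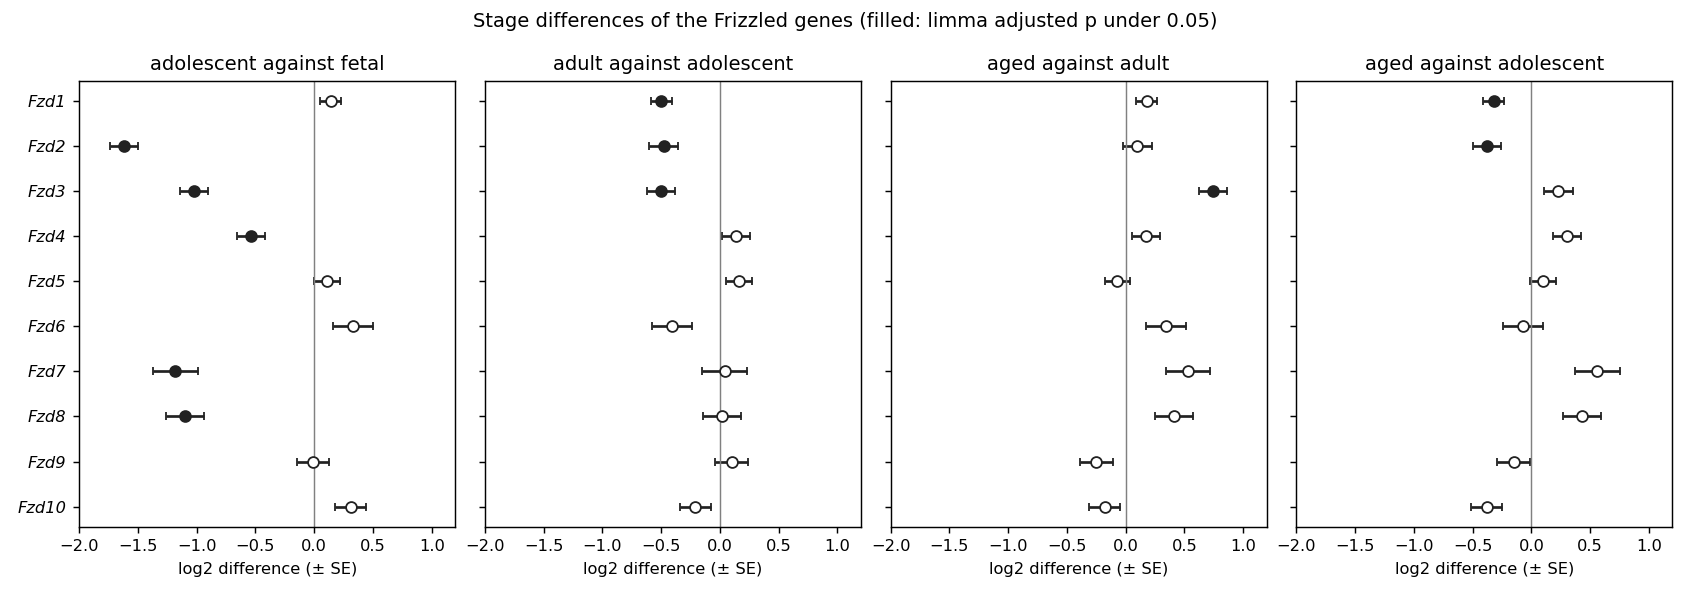
Points give the log2 difference of each Frizzled gene in 4 stage comparisons, with bars of 1 standard error from limma, filled where the adjusted p is under 0.05. The largest fetal to adolescent decrease is that of Fzd2 at -1.62, and Fzd3 is the only filled point in aged against adult, at 0.74.

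Stages further apart were compared in the same fit, and they share arrays with the comparisons above. In adult against fetal cells 6 of 10 were lower (Fzd1, Fzd2, Fzd3, Fzd4, Fzd7 and Fzd8) and 0 higher, beside 23.4% and 19.1% of all genes, with Fzd3 at -1.52 ± 0.12, Fzd7 at -1.14 ± 0.19 and Fzd8 at -1.08 ± 0.16. Without the arrays of high receptor signal, with 1 adult array, the differences were smaller: Fzd7 was at -0.60 ± 0.13, Fzd8 at -0.63 ± 0.11, Fzd1 at -0.24 and Fzd4 at -0.22. In aged against fetal cells 4 of 10 were lower and 0 higher, beside 19.4% and 16.4% of all genes: Fzd2 at -2.0 ± 0.12, Fzd3 at -0.78 ± 0.12, Fzd8 at -0.67 ± 0.16 and Fzd7 at -0.61 ± 0.19. The Fzd7 difference lost its call without fetal replicate 1 (-0.55, adjusted p = 0.0777), fetal replicate 3 (-0.62, 0.0543) or aged replicate 1 (-0.53, 0.0774). In aged against adolescent cells 2 of 10 were lower, Fzd2 (-0.38 ± 0.12, adjusted p = 0.0384) and Fzd1 (-0.32 ± 0.09, adjusted p = 0.0239), and 0 higher, beside 11.5% and 8.08% of all genes. This balance depended on the scaling. With quantile normalization repeated, 3 were higher (Fzd4, Fzd7 and Fzd8) and 1 lower (Fzd10), beside 2303 and 2145 of all genes. With each array centred on its median over genes the same 3 were higher and 0 lower, beside 2008 and 1917. Fzd1 (adjusted p = 0.0685 and 0.06) and Fzd2 (adjusted p = 0.0883 and 0.0929) lost their calls in both. With centring on the median over all probe sets, an alternative chosen after seeing the data, 0 were higher and 3 lower, beside 1129 and 2995 of all genes. With values below 6 set to 6, 0 were higher and 3 lower, beside 1366 and 1962. As reported, Fzd7 (0.56 ± 0.19, adjusted p = 0.0546) and Fzd8 (0.43 ± 0.16, adjusted p = 0.0723) missed the threshold in aged against adolescent, although the aged values of both lay above all adolescent ones. With only the adolescent and aged arrays in the fit they passed (adjusted p = 0.00972 and 0.0124). With replicate number as a block, Fzd2 lost its call (adjusted p = 0.0606). The count in this comparison was 0 without adolescent replicate 2 or 3 or aged replicate 2 or 3, beside 2693 to 2935 of all genes. It was 1 without adolescent replicate 1 or fetal replicate 2 (3159 and 3549 of all genes). It was 3 without fetal replicate 1, adult replicate 2 or aged replicate 1 (3878, 3779 and 4144 of all genes). Without adult replicate 1 it was 6, of which 3 were higher and 3 lower, beside 2188 and 3278 of all genes.

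**Figure D3:**
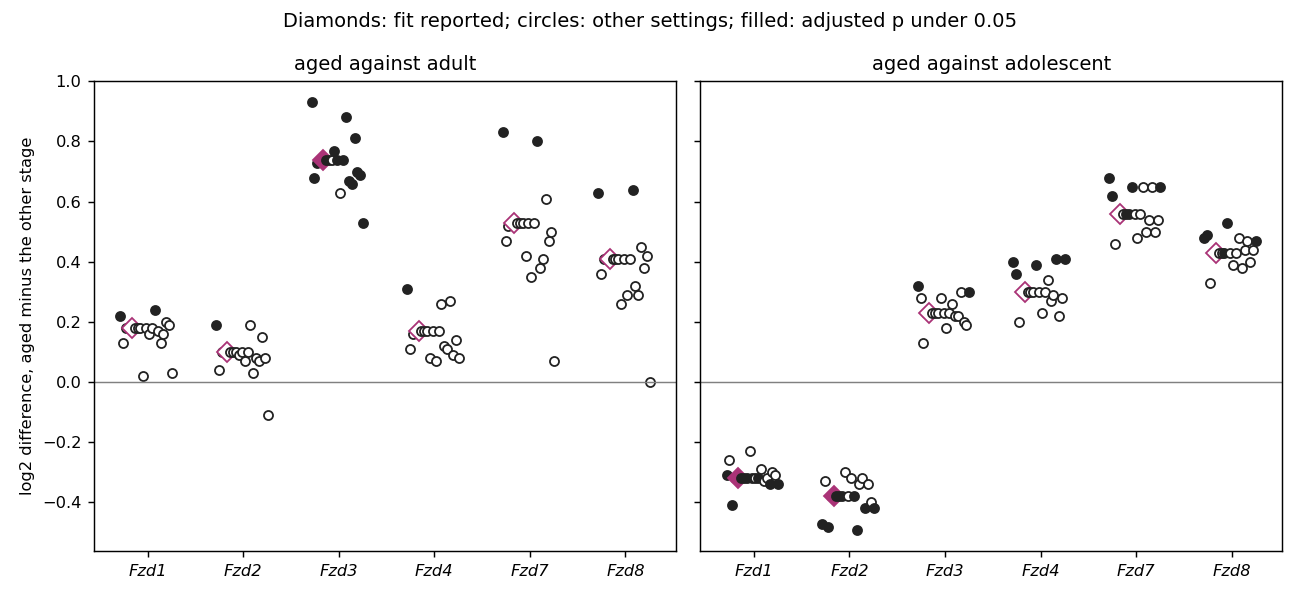
Each symbol is the log2 difference of aged minus adult cells (left) or aged minus adolescent cells (right) for the 6 Frizzled genes called in the F-test, with the value reported as a diamond, each other setting as a circle, and filled symbols for an adjusted p under 0.05. Fzd3 stays above 0 in aged against adult in every setting drawn, while Fzd7 spans 0.07 to 0.83 there.

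Markers of other cell types and of the cell cycle moved with stage as well. Of 12 measured genes of dividing cells, 2 fell from fetal to adolescent cells, 12 fell from adolescent to adult cells and 0 passed from adult to aged cells (0 higher and 3 lower at an unadjusted p under 0.05), where the list mean was 6.50 to 8.19 on adult and 6.16 to 7.13 on aged arrays. The highest adult value, 8.19, is that of replicate 1, the adult array with the highest Fzd1, Fzd2, Fzd3, Fzd4, Fzd7 and Fzd8. That array also had the lowest adult Fzd5, Fzd6, Fzd9 and Fzd10 and the lowest adult receptor mean (3.83). Of 14 endothelial markers, 13 rose and 0 fell from fetal to adolescent cells, 0 rose and 7 fell to adult cells, and 9 rose and 0 fell to aged cells. Their mean ran from 6.83 to 7.64 on fetal, 8.31 to 8.86 on adolescent, 7.72 to 7.78 on adult and 8.49 to 9.03 on aged arrays, and 0 of 14 had a stage mean at or below the receptor line. On adult replicate 1 the endothelial mean, 7.72, was the lowest of the adult arrays. Of 11 measured fibroblast markers, 2 rose and 5 fell from fetal to adolescent cells, 0 rose and 4 fell to adult cells and 0 passed to aged cells (1 higher and 4 lower unadjusted), with means of 8.43 to 9.16, 8.18 to 8.39, 7.71 to 7.75 and 7.67 to 7.78 from fetal to aged arrays, and Tcf21 at or below the line at every stage. Fetal replicate 1 had the highest fetal mean of both lists, 7.64 and 9.16, and the highest fetal Fzd3, Fzd4, Fzd6, Fzd7, Fzd9 (6.66 against 6.65) and Fzd10. It had the lowest fetal Fzd2 and Fzd8, and Fzd1 and Fzd5 lay between the other fetal values. Its means of smooth muscle and pericyte (7.90) and mature myofibre markers (8.02) were also the highest fetal ones, and that of dividing cell genes (10.19) the lowest.

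Smooth muscle and pericyte markers (10 measured) gave 6 higher and 1 lower from fetal to adolescent cells, 1 and 3 to adult cells and 3 and 0 to aged cells, with array means from 7.64 to 8.90. Mature myofibre markers (12) gave 6 higher and 0 lower, 0 and 6, then 0 and 0 at the same steps, and mast cell markers (7) gave 0 and 6, 0 and 1, then 0 and 0, with Cma1 and Ms4a2 at or below the line at every stage. At an unadjusted p under 0.05, limma called 0 myofibre markers higher and 1 lower, and 2 mast cell markers higher and 0 lower, from adult to aged cells. Whether these markers came from other cells in the sort was not tested. The part of other cell types and of the cell cycle in the Frizzled differences was not tested.

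**Figure D4:**
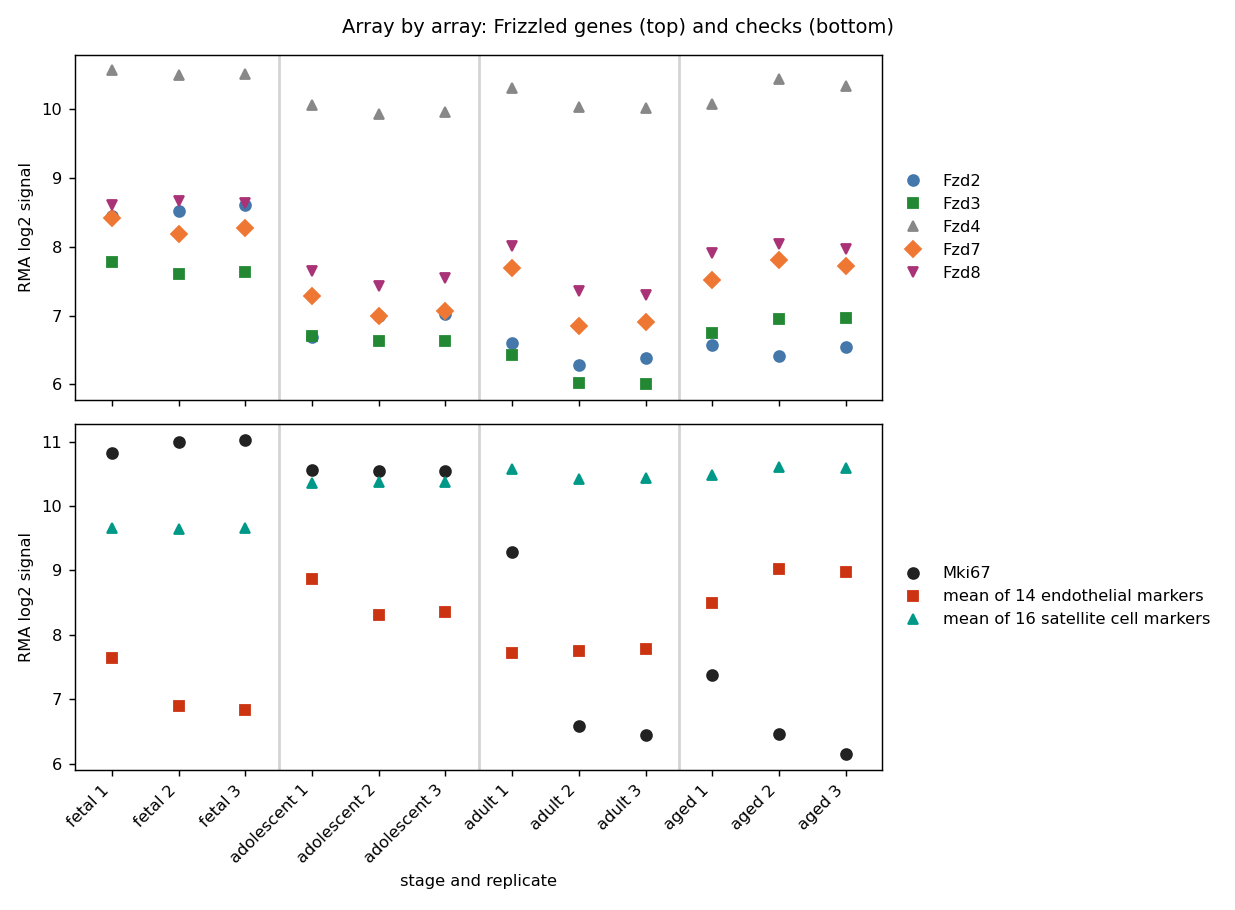
The upper panel plots the RMA log2 signal of Fzd2, Fzd3, Fzd4, Fzd7 and Fzd8 on each array, and the lower panel Mki67 with the mean of 14 endothelial and 16 satellite cell markers on the same arrays. On adult replicate 1 Mki67 is at 9.28 and Fzd7 and Fzd8 are at 7.69 and 8.01, above the other adult arrays, while the endothelial mean there is 7.72.

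Within the family, the strongest likeness over the 12 arrays was between Fzd7 and Fzd8 (Pearson r = 0.986), followed by Fzd4 and Fzd7 (r = 0.953), Fzd4 and Fzd8 (r = 0.927), Fzd3 and Fzd8 (r = 0.924) and Fzd3 and Fzd7 (r = 0.915). These points share stages, arrays and normalization, so r describes the profile and carries no test. Among about 2610 genes that varied between stages, the closest to Fzd7 after Fzd8 were Adgrl3 (r = 0.977), an adhesion receptor also called latrophilin, and Cspg4b (r = 0.967). Adgrl3 had stage means of 8.90, 6.50, 6.55 and 7.55 from fetal to aged cells. Fzd8 was closest to Fzd7, Adgrl3 (r = 0.981) and Nynrin (r = 0.971). Fzd4 was closest to Fzd7, Cspg4b (r = 0.948) and Miga1 (r = 0.944), a mitochondrial outer membrane protein. The profile of Fzd3 was nearest to Adgrg2 (r = 0.993), Alms1 (r = 0.985), a gene of the centrosome and cilium base, and Mark1 (r = 0.981), a kinase of microtubule-associated proteins. The profile of Fzd2 was nearest to Cep41 (r = 0.989), Kcne1l (r = 0.988) and Sertad4 (r = 0.988), and that of Fzd1 to Taf13 (r = 0.961), Cd109 (r = 0.957) and Pdlim1 (r = 0.951).

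Ligands and their secretion changed in few genes. Of 19 Wnt genes, 0 rose and 1 fell from fetal to adolescent cells, 1 rose and 0 fell to adult cells and 0 passed to aged cells (0 higher and 4 lower at an unadjusted p under 0.05 with limma). Wnt5a, a ligand of the planar polarity branch, fell by 0.45 ± 0.14 from 6.37 to 5.91 (adjusted p = 0.0385), and Wnt4 rose by 0.94 ± 0.22 from adolescent to adult cells, from 6.86 to 7.80 (adjusted p = 0.00996). Between 4 and 7 of the 19, depending on the stage, had a mean at or below the receptor line of 5.57, Wnt7a among them at every stage. The levels of those ligands were not resolved from background. Over the adult arrays alone the line averaged 5.88. The adult means of Wnt2, Wnt2b, Wnt5a, Wnt7b, Wnt8a, Wnt10b and Wnt16 also lay below that value. Of 5 secretion genes, 1 rose and 0 fell from fetal to adolescent cells. To adult cells 0 rose and 1 fell, and to aged cells 1 rose and 0 fell. Porcn, which acylates Wnts, rose by 0.61 ± 0.11 from fetal to adolescent cells (adjusted p = 0.00161). Vps35 fell from 9.48 in adolescent to 8.96 in adult cells (-0.52 ± 0.15, limma adjusted p = 0.0306). Wls, which carries Wnts to the cell surface, rose by 0.49 ± 0.11 from adult to aged cells (adjusted p = 0.0241), the step at which Fzd3 rose.

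Co-receptors changed in both directions. Of 12, 4 rose and 5 fell from fetal to adolescent cells, 1 rose and 2 fell to adult cells and 0 passed to aged cells (1 higher and 1 lower unadjusted), with medians of -0.04, -0.10 and 0.06. The heparan sulphate proteoglycan Gpc3 fell from 11.53 to 8.69 and then to 6.46 (differences of -2.84 ± 0.14 and -2.24 ± 0.14, adjusted p = 1.73e-08 and 2.42e-06). Sdc4, another such proteoglycan and a marker of satellite cells that forms a complex with Fzd7, rose from 7.88 to 10.07 and 10.75 (2.19 ± 0.13 and 0.68 ± 0.13, adjusted p = 8.63e-08 and 0.00298). Ptk7, a planar polarity co-receptor, fell by 1.37 ± 0.12 (adjusted p = 4.97e-06), and the Wnt5a receptor Ror1 rose by 1.11 ± 0.10 (adjusted p = 6.17e-06), both from fetal to adolescent cells.

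Genes that set how much Frizzled stays at the surface, or that block it, changed as follows. Of 15 turnover genes, 1 rose and 3 fell from fetal to adolescent cells, 1 rose to adult cells and 0 passed to aged cells (2 higher and 1 lower unadjusted). The R-spondin receptors Lgr5 and Lgr4 fell by 1.38 ± 0.13 and 0.86 ± 0.11, and Shisa2, which holds Frizzled inside the cell, fell by 0.46 ± 0.13 (adjusted p = 9.45e-06, 0.000114 and 0.024). Lgr5 was at or below the receptor line after birth. Rnf43, a ligase that removes Frizzled from the surface, rose by 0.38 ± 0.12 from adolescent to adult cells, from 5.57 to 5.94 (adjusted p = 0.0437), and the adolescent value lies at the line. Over the arrays of each stage the receptor line itself averaged 5.46 in adolescent and 5.88 in adult cells. Whether Rnf43 rose by more than this background was not tested. Of 15 secreted inhibitors and their receptors, 2 rose and 2 fell from fetal to adolescent cells, 1 fell to adult cells and 0 passed to aged cells (2 higher and 2 lower unadjusted). Sfrp2, a decoy with a Frizzled-like cysteine-rich domain, fell from 9.53 to 7.62 and 6.39 (differences of -1.91 ± 0.20 and -1.23 ± 0.20, adjusted p = 1.44e-05 and 0.00127). Sfrp5 rose by 0.83 ± 0.14 (limma adjusted p = 0.000735), from 5.60 in fetal to 6.43 in adolescent cells. Its fetal value lies close to the receptor line of 5.57.

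Downstream of the receptors, 1 of 20 beta-catenin transducers rose and 5 fell from fetal to adolescent cells, 3 rose and 2 fell to adult cells and 0 passed to aged cells (4 higher and 0 lower unadjusted). Tcf7l2 and Tcf7l1, DNA-binding partners of beta-catenin, fell by 0.98 ± 0.10 and 0.86 ± 0.10, and the co-repressor Tle3 rose by 0.71 ± 0.10 (adjusted p = 1.58e-05, 3.66e-05 and 0.000242). Ctnnb1, beta-catenin itself, fell by 0.50 ± 0.11 from adolescent to adult cells (adjusted p = 0.00913). Of 15 measured target genes, 2 rose and 2 fell, then 1 rose and 1 fell, then 0 rose and 1 fell over the same steps. Lgr5, Rnf43 and Znrf3 are also in the turnover list, and Notum and Dkk1 in the inhibitor list, so the counts are not separate. The fall of Lgr5 and the rise of Rnf43 given above are counted here again. Ccnd1, which many other signals also drive, rose by 1.59 ± 0.17 and then fell by 0.91 ± 0.17 and 0.74 ± 0.17 (adjusted p = 1.9e-05, 0.00309 and 0.0318). The stage means of Axin2 and Lef1, singled out after their values were seen because they are common readouts of the pathway, lay between 6.05 and 6.24 and between 5.70 and 5.91. Lef1 was at 5.91 in adult cells, close to the receptor line of 5.88 averaged over the adult arrays.

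In the planar polarity list of 16, 1 rose and 4 fell from fetal to adolescent cells, 4 fell to adult cells and 2 rose to aged cells. Dact1, a partner of Dishevelled, fell by 1.03 ± 0.10 and 0.50 ± 0.10 and then rose by 0.68 ± 0.10 (adjusted p = 8.4e-06, 0.00442 and 0.00297), so it passed in the same direction as Fzd3 at all 3 steps. The giant cadherin Fat4 rose by 1.26 ± 0.22 from adult to aged cells (adjusted p = 0.00794), and its partner Dchs1 fell by 1.03 ± 0.11 from fetal to adolescent cells (adjusted p = 1.89e-05). Of 14 genes of the calcium branch, 3 rose and 3 fell, then 0 rose and 1 fell, then 1 rose and 0 fell. The phospholipase genes Plcb4 and Plcb1 rose, by 1.72 ± 0.21 from fetal to adolescent and by 0.64 ± 0.12 from adult to aged cells (adjusted p = 5.98e-05 and 0.0143). Beside the Frizzled median of -0.28 from fetal to adolescent cells, the list medians at that step were 0.03 for ligands, 0.12 for secretion, -0.04 for co-receptors, -0.14 for turnover, -0.15 for inhibitors, -0.11 for transducers, -0.11 for targets, -0.15 for planar polarity and 0.12 for the calcium branch, and 0.02 over all genes.

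**Figure D5:**
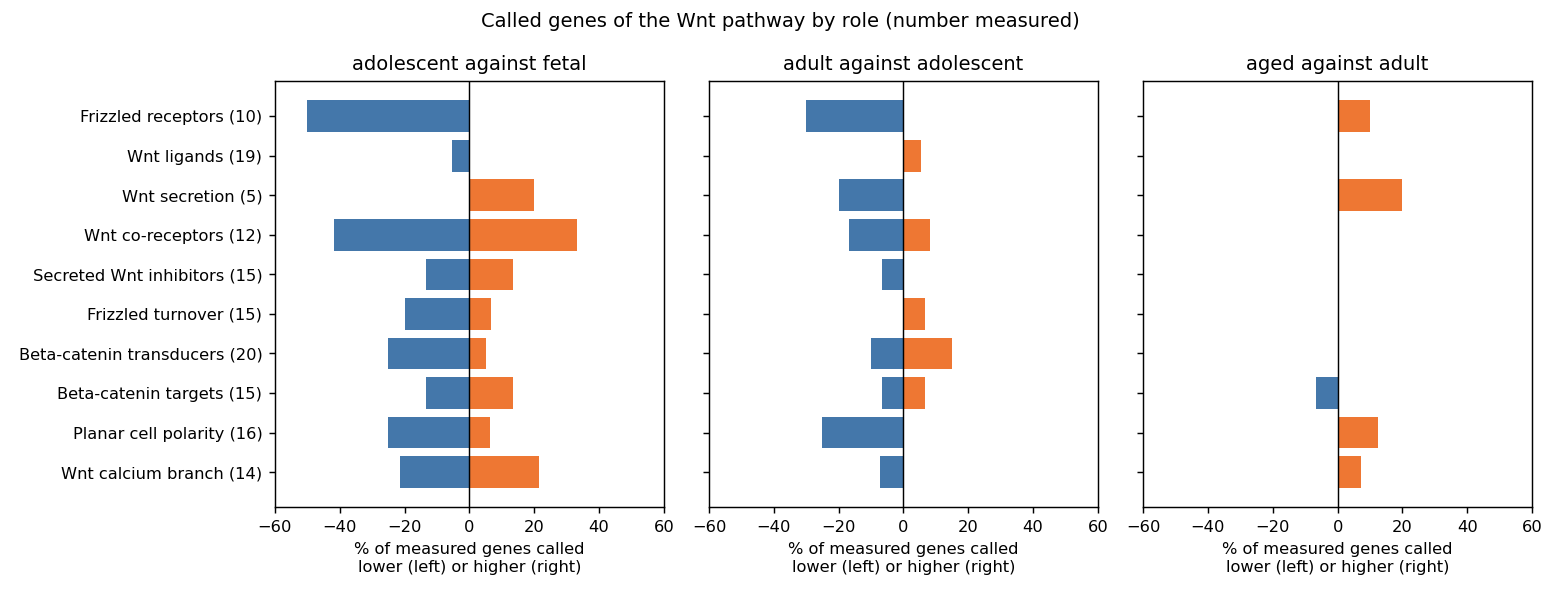
Bars give the percentage of the measured genes of each Wnt pathway role that passed limma's test lower (left of 0) or higher (right of 0) at 3 successive stage steps, with the number measured in brackets. From fetal to adolescent cells the Frizzled bar runs to 50% lower with none higher, whereas co-receptors run both ways. The target list shares genes with the turnover and inhibitor lists.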

How the data were processed

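Total RNA from sorted cells was extracted for each replicate, and 100 ng of it was processed with Ambion's whole-transcript kit, labelled with biotin and hybridised to Affymetrix arrays, per the labels' protocols. The authors deposited log2 values from Affymetrix Expression Console 1.2.1.20, with RMA as the summary method, per the submitters' processing notes; the genome build is not given in the sources used here. Background correction and normalization were taken as deposited, and scanner files were not used here. Of 35556 probe sets, 21789 had 1 gene symbol, 1621 had several and 12146 were not named in the platform annotation. Probe sets with 1 symbol gave 19938 genes (the brightest per gene).

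The log2 values of all 12 arrays entered 1 linear model that gave each stage its mean. R 4.3.3 and limma 3.58.1 were used (8 residual degrees of freedom), and p was adjusted over all genes by Benjamini-Hochberg. Genes with an adjusted p under 0.05 are called. Rose and fell refer to called genes. The number of arrays limits the precision: 3 against 3 cannot give an exact two-sided p under 0.1. The scripts were tested on simulated data. No minimum signal was applied. The members and the gene lists were chosen with earlier results of these data known. All members are named; of each list up to 4 called genes with the smallest p per comparison may be named; like genes are the 3 of highest Pearson r among genes with a stage mean of at least 6 and a span of at least 1.

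Deviations from stage means of equal replicate numbers correlated at 0.362, 0.317 and 0.239 between adolescent and adult arrays. Between adult and aged arrays they correlated at -0.435, -0.393 and -0.237. Unequal replicate numbers were not compared, so these values cannot show a pairing by number, and the labels state none. With the replicate block 3 Frizzled genes still passed in adult against adolescent. Alternatives covered normalization, centring, low values, probe set choice, the samples and variance model, array weights, the block and leaving out arrays.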

Additional observations from a re-analysis of the deposited data

How the results depend on the processing

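No called Frizzled difference changed sign in any alternative run. Single called differences kept their call in 225 of the alternatives that left no single array out and lost it in 27, and in 105 and 21 of those that did. With only the stages compared in the fit, 1 Frizzled gene passed between adolescent and adult cells, 0 between adult and aged and 5 between adolescent and aged (3, 1 and 2 as reported). Of all genes, 2145, 176 and 4489 passed in that setting (3941, 697 and 3899 as reported). With array weights from limma the counts were 6 for adolescent to adult, 8 for adult to aged, 7 for fetal to aged, 8 for adolescent to aged cells and 10 in the F-test, beside 14480, 13655, 10280, 9909 and 17993 of 19938 genes. With replicates 2 and 3 averaged they were 0 for adolescent to adult, 0 for adult to aged, 2 for fetal to aged and 0 for adolescent to aged cells, from fewer samples. There 323, 2, 4140 and 1122 of all genes passed. In aged against adolescent, 0 were higher and 2 lower as reported. With quantile normalization repeated 4 passed there (3 higher, 1 lower), beside 4448 of all genes. With only genes above the receptor line tested 4 passed (1 higher, 3 lower), beside 4191 of 14345. With the replicate block 1 passed (lower), beside 3685, and the block changed no other call (5, 3, 1, 6 and 4 in the other comparisons and 6 in the F-test). The count also moved without the arrays of high receptor signal, a fit with 1 adult array. Leaving out 1 array of the stages compared at a time gave 1 to 3 for adolescent to adult, 1 to 5 for adult to aged and 0 to 3 for adolescent to aged cells. Of all genes, 1876 to 10757, 214 to 7844 and 2693 to 4144 passed there. In adolescent to aged cells, leaving out adult replicate 1, which shares the fit, gave 6, beside 5466 of all genes. Apart from the fewer samples or genes, the cause was not tested.

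Scaling moved the balance over all genes. In adult against adolescent 909 genes were higher and 3032 lower, which became 1988 and 1980 with quantile normalization, 2233 and 2076 with each array centred on its median over genes, and 517 and 4084 with centring on the median over all probe sets, an alternative chosen after seeing the data. The median of all genes there was 0.03 as reported and 0.13 and -0.07 under those centrings. In aged against adolescent, 1611 higher and 2288 lower became 2303 and 2145 (quantile) and 1129 and 2995 (all probe sets); in aged against adult, 654 and 43 became 621 and 147 (quantile); in adult against fetal, 3806 and 4659 became 2542 and 5201 (all probe sets). With replicates 2 and 3 averaged, 323 of all genes passed in adult against adolescent, against 3941 as reported. Signal near the receptor line limits Fzd5, Fzd6 and Fzd10, and Fzd2 and Fzd3 in adult cells.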
